A study of Trichoderma reesei with 24 samples.

Results

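The comparison described here sets 3 libraries of the Δ*nsd3* strain against 3 libraries of the WT strain, all grown for 24 h on glycerol, out of 24 libraries in the series. It was defined by the labels of these 6 samples, without use of any measured value. *T. reesei* is a filamentous ascomycete used to produce cellulases, and glycerol is a carbon source that neither induces nor strongly represses them. The Δ*nsd3* strain carries *nsd3*::*pyr4* in the TU6 background, so *nsd3* was replaced by the marker gene *pyr4*. The WT strain is TU6 itself, a uridine auxotroph that needs this marker, and the 2 strains therefore differ in both genes. Uridine was added to cultures when necessary, and the study does not say to which, so the medium may differ as well. By the methods of the study a single transformant served in most experiments, and the labels do not say whether the libraries come from more than that one. The other 18 libraries hold the same strains on glucose and on cellulose.

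Nsd3 is a zinc finger transcription factor of the NsdC kind, which in *Aspergillus* is known for its part in development. Mycelia of filamentous fungi coat their surface with hydrophobins, small secreted proteins that assemble where cells meet air. They also turn over their walls with chitinases, and plug damaged cells with Woronin bodies. These products can make up a large part of the mRNA of a culture, so a change in a few of them moves the composition of the whole transcriptome.

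The TPM of the authors summed to between 840496 and 860757 per library. The steps between low TPM values gave an estimated depth of 239 M reads for Δ*nsd3* replicate 3 and of 29.2 M to 41.3 M reads for the other 5 libraries. Only 179 genes were listed at 0 in the deep library, and 424 to 506 genes in each of the others. Across genes, which are not independent replicates, libraries of the same strain correlated with r of 0.988 to 0.995, and libraries of different strains with 0.951 to 0.964. *nsd3* (TRIREDRAFT_75672) had 0.170, 0.126, and 0.366 TPM in the Δ*nsd3* libraries, against 312, 289, and 327 TPM in the WT libraries. The strains did not overlap, with a log2 fold change of −7.99 (SE 0.42, limma adjusted p = 1.9e-11). *hex1*, whose product builds the Woronin bodies of hyphae, had at least 4779 TPM in every library of both strains, and the labelled material was mycelia. WT replicate 3 stood apart from the other WT libraries in several genes. The cellobiohydrolase *cel7a* had 9.80, 8.75, and 1.70 TPM in the Δ*nsd3* libraries, against 1.45, 2.60, and 27.3 TPM in the WT libraries, and the hydrophobin *hfb1* followed the same pattern in WT. *thi4* had 1308, 1160, and 1163 TPM in the Δ*nsd3* libraries, against 589, 507, and 1172 TPM in the WT libraries, and *lxr1* and *min1*, described below, were also highest in WT replicate 3 among the WT libraries. Without it, 334 genes were called higher and 453 lower by the rule given below.

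TPM is relative to the sum of a library, so the fall of a very abundant gene lifts all others. All levels given for genes and groups, *nsd3*, *cel7a*, and *thi4* included, are TPM divided by size factors from the median of ratios over 24 libraries, which were 1.05, 1.12, and 0.996 in the Δ*nsd3* libraries and 0.891, 0.824, and 0.761 in the WT libraries. On this scale the summed level was 815399 ± 51123 in the Δ*nsd3* strain and 1032034 ± 77838 in WT (SD, n = 3 each). *hfb2* alone accounted for 37.0% of that difference. Rescaling moved the median log2 fold change to −0.01 over 7906 genes tested, against 0.29 over the 7933 genes tested before it. Of the genes called, 40.4% were higher in the Δ*nsd3* strain, against 70.4% before rescaling. A gene was called where its absolute log2 fold change on log2(TPM + 1) was at least 1 with an adjusted p under 0.05 in limma, over 7906 genes tested. This held for 9.39% of them. In the Δ*nsd3* strain 300 genes were called higher (3.79%) and 442 were called lower (5.59%). The 3 libraries of the strains did not overlap in 49.5% of all genes tested, with the Δ*nsd3* strain higher in 22.9% and lower in 26.6%. Rises and falls named below are calls.

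On the rescaled TPM, the lower summed level of the Δ*nsd3* strain was concentrated at the top of the abundance range. Genes were placed in classes by the mean level of both strains. The 162 genes at 1000 TPM and over held 51.1%, 50%, and 52.0% of the summed TPM in the Δ*nsd3* libraries, against 55.2%, 57.2%, and 57.6% in the WT libraries. The strains did not overlap. Within this class, *hfb2* alone held 4.35%, 3.70%, and 3.06% of the summed TPM in the Δ*nsd3* libraries, against 11.2%, 11.9%, and 9.09% in the WT libraries. The share of the class without *hfb2* was not computed. With *hfb2* included, this class carried 77.8% of the difference in summed level. Its median log2 fold change was −0.24, and 82.7% of its genes had a value below 0, but only 6 were called higher and 11 lower. Values below 0 made up 67.3% of genes at 100 to 1000 TPM, 50.9% at 10 to 100 TPM, and 41.1% at 1 to 10 TPM. The median of the top class depended on the scale: it was 0.12 with TPM as deposited and 0.0026 with quantile normalization. On the rescaled TPM the median was −0.16 over the 1075 genes at 100 to 1000 TPM, where 35 were called higher and 95 lower. It was −0.01 over the 3952 genes at 10 to 100 TPM, with 143 and 188 calls, and 0.10 over the 2145 genes at 1 to 10 TPM, with 112 and 142 calls. Of all calls, 34.2% lay at 1 to 10 TPM and 44.6% at 10 to 100 TPM, which are also the classes with the most genes tested. At 1 to 10 TPM, 5.22% of the genes tested were called higher and 6.62% lower, and at 10 to 100 TPM 3.62% and 4.76%. Over all genes tested these shares were 3.79% and 5.59%.

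**Figure D1:**
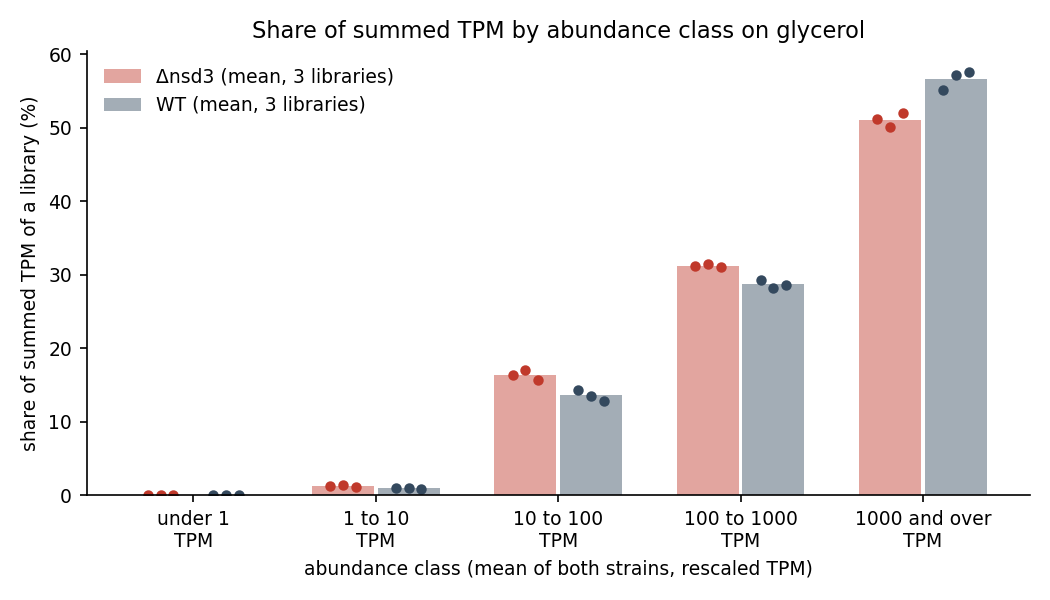
Share of the summed TPM of each library (y axis, percent) in 5 abundance classes (x axis, rescaled TPM, mean of both strains). Bars are means of 3 libraries and points are libraries. In the class of 1000 TPM and over, the Δ*nsd3* libraries sit between 50% and 52.0% and the WT libraries between 55.2% and 57.6%.

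The most abundant transcripts took a smaller share in the mutant. The 10 most abundant genes of a library held 16.1%, 15.3%, and 16.1% of its TPM in the Δ*nsd3* strain, against 21.9%, 23.6%, and 22.1% in WT. The libraries did not overlap (exact permutation test, two-sided, p = 0.1, which is the smallest p that 3 against 3 allow). For the top 100 genes the means were 43% in the Δ*nsd3* strain and 48.9% in WT. The difference in the top 10 share was −6.69 percentage points, and −0.18 without the 10 genes that differed most in mean TPM. Of the 10 genes with the highest mean in each strain, 6 were shared.

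Hydrophobins fell most in absolute terms. *hfb2* (TRIREDRAFT_119989), which encodes a class II hydrophobin, had 35646, 28194, and 26478 TPM in the Δ*nsd3* libraries, against 107684, 121467, and 101349 TPM in the WT libraries. It was the most abundant gene in WT and the second in the mutant, and the strains did not overlap. The log2 fold change of *hfb2* was −1.88 (SE 0.26, adjusted p = 9.2e-06), and −0.95, not called, under quantile normalization, which fixes the level of each rank. *hfb3* (TRIREDRAFT_123967) had 2816, 1764, and 1569 TPM in the Δ*nsd3* libraries, against 8843, 7429, and 6961 TPM in the WT libraries, with a log2 fold change of −1.96 (SE 0.24, adjusted p = 2.6e-06). *hfb1* had 31.1, 53.8, and 35.4 TPM in the Δ*nsd3* libraries, against 51.4, 55.6, and 354 TPM in the WT libraries. The gene was not called (log2 fold change −1.35, adjusted p = 0.086), and WT replicate 3 was far above the other libraries. Without WT replicate 1 or 2 it was called (−1.83 and −1.77), and without WT replicate 3 the value was −0.45. The summed level of the 3 hydrophobins was 32196 ± 5538 TPM in the Δ*nsd3* strain and 118065 ± 10225 TPM in WT (SD, n = 3), a ratio of 0.273. In RNA of whole mycelia, fewer cells of a kind and less RNA per cell cannot be told apart.

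Of the 15 chitin degradation genes tested, 2 fell, none rose, and 13 had a log2 fold change below 0. Beside this, 5.59% of all genes tested were called lower and 3.79% higher. Outside the stretch of raised neighbours described below, 47.9% of genes had a value above 0. Some of the 13 were below 1 TPM in both strains, such as *chi18-16*, at 0.74 TPM in the Δ*nsd3* strain and 0.82 TPM in WT (log2 fold change −0.051). *chi18-2* (TRIREDRAFT_59082) had 169, 185, and 150 TPM in the Δ*nsd3* libraries, against 609, 776, and 973 TPM in the WT libraries (log2 fold change −2.20, SE 0.63, adjusted p = 0.011). *chi18-7* had 186, 191, and 191 TPM in the Δ*nsd3* libraries, against 450, 567, and 555 TPM in the WT libraries (log2 fold change −1.46, SE 0.29, adjusted p = 0.00054). Both genes encode chitinases of glycoside hydrolase family 18 by their names, and neither overlapped between the strains. *nag2*, which encodes an N-acetylglucosaminidase, had 298, 290, and 352 TPM in the Δ*nsd3* libraries and 504, 639, and 768 TPM in the WT libraries. This difference was not called (log2 fold change −1.01, adjusted p = 0.10), but it was called in a fit of the 6 glycerol libraries alone (adjusted p = 0.00097) and in a fit of all libraries paired by replicate number (adjusted p = 0.0025). Its sister *nag1* was low in both strains, at 13.1 and 21.1 TPM. The summed level of the 19 listed genes present was 735 ± 14.8 TPM in the Δ*nsd3* strain and 2034 ± 360 TPM in WT (SD, n = 3), without overlap.

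Other very abundant genes fell with the hydrophobins. *hex1* had 5093, 4779, and 4816 TPM in the Δ*nsd3* libraries, against 11778, 10630, and 9240 TPM in the WT libraries (log2 fold change −1.10, SE 0.16, adjusted p = 1.3e-05). With TPM as deposited the value of *hex1* was −0.75, short of the threshold. TRIREDRAFT_123009, TRIREDRAFT_55272, and TRIREDRAFT_73048, which the tables used here do not name, had means of 830, 934, and 667 TPM in the Δ*nsd3* strain, against 3663, 4168, and 3235 TPM in WT, and log2 fold changes of −2.14, −2.15, and −2.28. TRIREDRAFT_121717 had 4377 TPM in the Δ*nsd3* strain and 9958 TPM in WT (log2 fold change −1.16, or −0.81 and not called with TPM as deposited). TRIREDRAFT_110879, the highest gene of the mutant, had 34348 TPM in the Δ*nsd3* strain and 49173 TPM in WT. It overlapped between the strains and was not called. Abundant genes rose as well. TRIREDRAFT_81136 had 10091, 8806, and 12018 TPM in the Δ*nsd3* libraries, against 2289, 2870, and 3712 TPM in the WT libraries (log2 fold change 1.82, SE 0.26, adjusted p = 1.6e-05). TRIREDRAFT_123475 had 1629 TPM in the Δ*nsd3* strain and 498 TPM in WT (log2 fold change 1.72). TRIREDRAFT_60847 rose with a log2 fold change of 1.26. TRIREDRAFT_73516, the third most abundant gene of the mutant, had 11993, 9319, and 14021 TPM in the Δ*nsd3* libraries, against 4492, 4225, and 7191 TPM in the WT libraries (log2 fold change 1.17, adjusted p = 0.020). TRIREDRAFT_44967 had 4443, 3797, and 4515 TPM in the Δ*nsd3* libraries, against 1264, 1407, and 3475 TPM in the WT libraries (log2 fold change 1.21, adjusted p = 0.033). Neither strain overlapped the other in these genes, but the call was lost without Δ*nsd3* replicate 1 or 3 or WT replicate 1 or 2 in TRIREDRAFT_73516 (1.03 to 1.15), and without any library but WT replicate 3 in TRIREDRAFT_44967 (0.94 to 1.29).

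**Figure D2:**
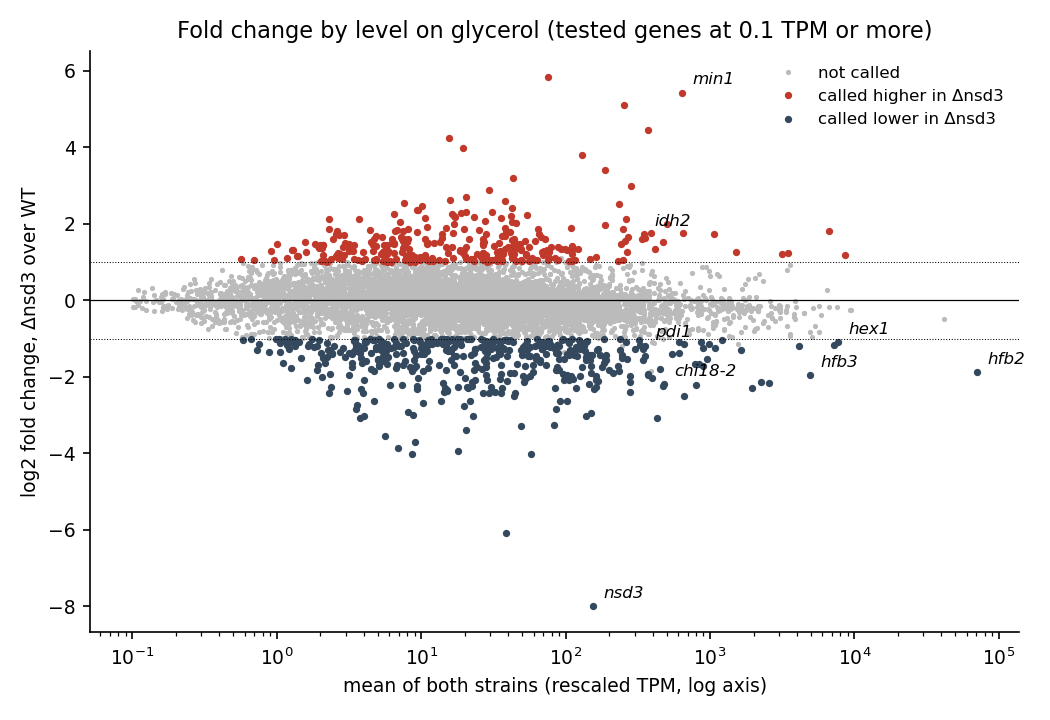
Log2 fold change of the Δ*nsd3* strain over WT (y axis) against the mean level of both strains (x axis, rescaled TPM, log axis) for tested genes at 0.1 TPM or more. Red points were called higher (300 in all), dark points lower (442), and grey points were not called. *hfb2* sits at the right edge at −1.88, and *min1* is the highest gene marked by name at 5.43.

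Transcripts for protein folding in the endoplasmic reticulum were lower, with a ratio of the summed level of 0.678 without overlap, and 1 of 3 was called. Of these, *pdi1*, which encodes protein disulfide isomerase, fell, with 223, 234, and 184 TPM in the Δ*nsd3* libraries, against 549, 537, and 388 TPM in the WT libraries (log2 fold change −1.19, SE 0.17, adjusted p = 1.8e-05, and −0.83, not called, with TPM as deposited). *bip1*, the Hsp70 chaperone of that compartment, was close between the strains (464 and 518 TPM, adjusted p = 0.54), and *ire1*, the sensor of misfolded proteins, had a log2 fold change of −0.50. All 8 proteasome and ubiquitin genes had values below 0, 7 of them without overlap, but none was called. In limma 6 had an unadjusted and 5 an adjusted p under 0.05, short of the fold threshold. An example is *psa3*, a proteasome subunit by its symbol, with 261 TPM in the Δ*nsd3* strain and 483 TPM in WT (log2 fold change −0.88, adjusted p = 0.00014). Among all genes tested, 26.6% were lower without overlap, and 67.3% of those at 100 to 1000 TPM had values below 0. The ratio of the summed level of the proteasome and ubiquitin group was 0.810, and 1.04 with TPM as deposited. The 3 histones found were lower without overlap and not called. In limma all 3 had an unadjusted and 2 an adjusted p under 0.05. *hh2b* had 1915 TPM in the Δ*nsd3* strain and 2781 TPM in WT (log2 fold change −0.54). The 39 cytosolic ribosomal proteins had a median log2 fold change of −0.13. None was called by limma, 1 had an unadjusted p under 0.05, and their summed level overlapped between the strains. The median of all tested genes was −0.01.

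Of the 22 function groups, the summed level was lower without overlap in 11, higher without overlap in 5, and overlapping in 6. Among single genes, 26.6% were lower and 22.9% higher without overlap. The lower groups other than those above were sums of modest differences. The ratio of the Δ*nsd3* strain to WT was 0.718 for the 14-3-3 proteins, 0.768 for the light response genes, and 0.780 for the mitogen-activated and cell wall kinases. The counts of lower and higher groups depended on the scale. With TPM as deposited, 3 groups were lower and 11 higher. The hydrophobins, chitin degradation, and protein folding kept a ratio below 1 (0.348, 0.466, and 0.863). Other ratios below 1 were closer to it: 0.912 for sugar transporters, 0.917 for 14-3-3 proteins, and 0.935 for histones. They were 0.980 for light response genes and 0.999 for the kinases.

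**Figure D3:**
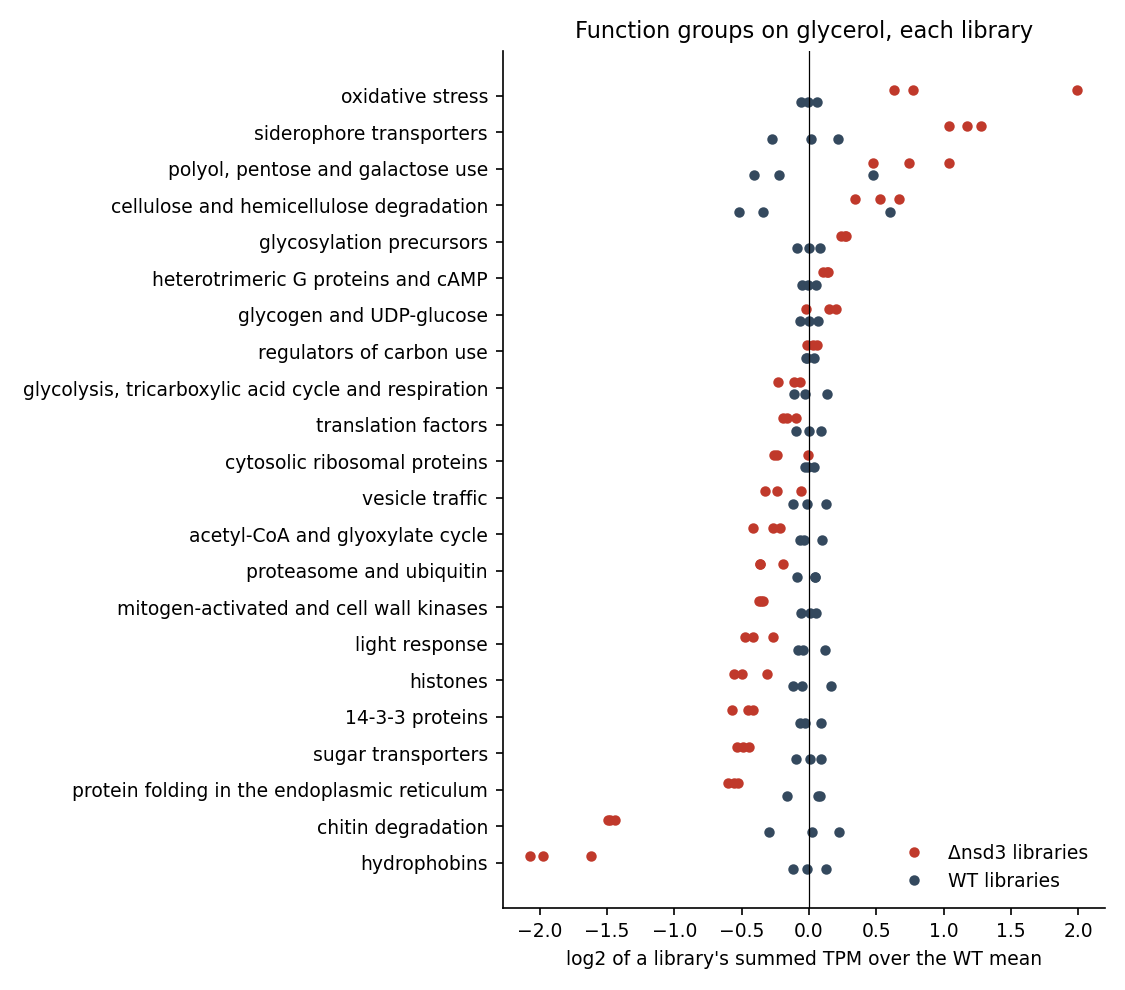
Log2 of the summed TPM of each function group in a library over the WT mean (x axis), for 22 groups (y axis). Each point is a library, with Δ*nsd3* above WT in each row. The hydrophobins and chitin degradation stand apart on the left, and oxidative stress and siderophore transporters on the right.

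Of the 8 genes of glycolysis, the tricarboxylic acid cycle, and respiration and the 5 of acetyl-CoA and the glyoxylate cycle, only *idh2* was called. *idh2*, an isocitrate dehydrogenase gene of the tricarboxylic acid cycle by its symbol, had 577, 425, and 609 TPM in the Δ*nsd3* libraries, against 180, 153, and 147 TPM in the WT libraries (log2 fold change 1.73, SE 0.20, adjusted p = 1.0e-06). No other of the 8 genes in its group was called, and the group sums overlapped. *acl1* and *acl2*, the ATP citrate lyase subunits that supply cytosolic acetyl-CoA, were lower without overlap and short of the fold threshold. They had 332 and 266 TPM in the Δ*nsd3* strain, against 583 and 486 TPM in WT (log2 fold changes −0.81 and −0.87, adjusted p = 2.2e-05 and 4.5e-06). *acu3*, a gene of the glyoxylate cycle, had the opposite direction, with 374 TPM in the Δ*nsd3* strain and 224 TPM in WT (log2 fold change 0.74, adjusted p = 0.0015). The gene *lxr1*, listed in the polyol, pentose, and galactose group, had 4559, 3754, and 5576 TPM in the Δ*nsd3* libraries, against 1816, 2105, and 3671 TPM in the WT libraries. Its log2 fold change of 0.92 was not called, and WT replicate 3 was close to the lowest mutant library. Without that replicate, it was 1.22 (adjusted p = 0.0038). *lxr1* set the polyol, pentose, and galactose group, whose summed level was 1.71 times that of WT. *lxr1* and the mannosyltransferase gene *dpm1* lie in the stretch of raised neighbours described below. Without the genes of that stretch the ratio of the polyol group was 1.02, and that of the glycosylation precursors was 0.746 in place of 1.20.

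Cellulase and hemicellulase genes were low in both strains on glycerol. Of 16 tested, 2 rose and none fell, and the median log2 fold change was 0.01. The shares over all genes tested were 3.79% called higher and 5.59% called lower. *cel5b*, which encodes an endoglucanase, had 38.2, 34.8, and 40.2 TPM in the Δ*nsd3* libraries, against 15.9, 14.6, and 22.2 TPM in the WT libraries (log2 fold change 1.08, SE 0.21, adjusted p = 0.00041), or 0.97 and not called without WT replicate 2. *axe2*, an acetyl xylan esterase by its symbol, had 48.9, 44.3, and 41.8 TPM in the Δ*nsd3* libraries, against 27.4, 21.4, and 17 TPM in the WT libraries (log2 fold change 1.03, adjusted p = 7.2e-05). Its value dropped below 1 without Δ*nsd3* replicate 1 (0.97) or without WT replicate 3 (0.86). The sums of the group overlapped, with 123, 111, and 97.8 TPM for the Δ*nsd3* strain and 60.8, 53.7, and 117 TPM for WT. *xyr1*, the activator of these genes, had 14.1 TPM in the Δ*nsd3* strain and 13.2 TPM in WT, and the repressor gene *cre1* had 153 and 161 TPM. Neither was called (adjusted p = 0.77 and 0.85).

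Of the 3 sugar transporter genes grouped, 1 fell, beside 5.59% of all genes tested called lower and 3.79% called higher. The others were not called. *glt1* had 76.1 TPM in the Δ*nsd3* strain and 81.6 TPM in WT. TRIREDRAFT_56684, which the study names Lac1, was near the floor, at 0.102 TPM in the Δ*nsd3* strain and 0 TPM in WT. The hexose transporter gene *hxt1* had 49.2, 39.2, and 36.5 TPM in the Δ*nsd3* libraries, against 87.1, 84.4, and 80.9 TPM in the WT libraries. The groups did not overlap, but the log2 fold change of −1.01 (SE 0.18, adjusted p = 0.00024) stood at the threshold. It was −0.66 with TPM as deposited, and short of the threshold without Δ*nsd3* replicate 2 (−0.97) or 3 (−0.93) or WT replicate 1 (−0.98). TRIREDRAFT_44175, which was not placed in this group, is known as a sophorose transporter gene. It had 79.7 TPM in the Δ*nsd3* strain and 49.1 TPM in WT and was not called (log2 fold change 0.70, adjusted p = 0.018). This gene lies in the stretch of raised neighbours described below. The siderophore transporter gene TRIREDRAFT_67026 had 42.3, 46.2, and 47.1 TPM in the Δ*nsd3* libraries, against 7.30, 9.48, and 14.5 TPM in the WT libraries (log2 fold change 2.06, SE 0.23, adjusted p = 6.3e-07). Its neighbours TRIREDRAFT_5206 and TRIREDRAFT_67109 rose too, with log2 fold changes of 1.90 and 1.41. The other siderophore transporter gene examined, TRIREDRAFT_78465, was at 16.5 TPM in the Δ*nsd3* strain and 17.1 TPM in WT, so the difference in the group total rests on 1 gene.

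Genes of signalling were among those with a symbol that rose. *rgs1*, a regulator of G protein signalling by its symbol, had 27.8, 26.9, and 27.6 TPM in the Δ*nsd3* libraries, against 4.15, 4.8, and 6.12 TPM in the WT libraries (log2 fold change 2.25, SE 0.26, adjusted p = 7.8e-07). *gna2*, a G protein alpha subunit, had 92.3, 91.2, and 105 TPM in the Δ*nsd3* libraries, against 34.3, 41.8, and 51.1 TPM in the WT libraries (log2 fold change 1.18, adjusted p = 0.0041). These were 2 of 8 tested in the group of G proteins and cAMP, where 3.79% of all genes tested were called higher. *sod1*, a superoxide dismutase, had 147, 378, and 162 TPM in the Δ*nsd3* libraries, against 94.8, 91.5, and 99.1 TPM in the WT libraries. Its log2 fold change was 1.12 (adjusted p = 0.0025), and 0.70, not called, without Δ*nsd3* replicate 2. The oxidative stress group is *sod1* alone, because *cat1* was listed at 0 in every glycerol library. *min1* rose most of the genes with a symbol, with 673, 1139, and 1937 TPM in the Δ*nsd3* libraries, against 16.1, 19.8, and 51.4 TPM in the WT libraries (log2 fold change 5.43, SE 0.41, adjusted p = 3.7e-09). *mata1* rose as well (39.9 and 13.5 TPM in the Δ*nsd3* strain and WT, log2 fold change 1.49), and *cro1* fell (65.8 and 144 TPM, log2 fold change −1.11, or −0.76 and not called with TPM as deposited, and −0.94 and −0.89 leaving out replicate 3 of either strain, mutant or WT). Together with *pap1*, the 220 tested genes with a symbol held 9 that rose and 8 that fell, *hex1* included. The shares over all genes tested were 3.79% called higher and 5.59% called lower. *pap1* (log2 fold change 1.06) was no longer called without WT replicate 3.

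Of the 742 calls, 725 had no symbol, and the largest changes in each class belonged mostly to these. Between 100 and 1000 TPM, TRIREDRAFT_82026 had 496 TPM in the Δ*nsd3* strain and 13.2 TPM in WT (log2 fold change 5.11), and TRIREDRAFT_54616 had 717 and 31.5 TPM (4.45). TRIREDRAFT_54768 and TRIREDRAFT_80019 had 90.7 and 30.5 TPM in the Δ*nsd3* strain, against 770 and 248 TPM in WT (−3.07 and −3.03). Between 10 and 100 TPM, TRIREDRAFT_74020 had 168, 109, and 170 TPM in the Δ*nsd3* libraries, against 1.29, 1.32, and 2.2 TPM in the WT libraries (log2 fold change 5.84, SE 0.26). TRIREDRAFT_103335 and TRIREDRAFT_102904 were at 30.4 and 37.6 TPM in the Δ*nsd3* strain and at 0.632 and 1.41 TPM in WT (4.25 and 3.98). TRIREDRAFT_105156 had 0.115, 0, and 0.217 TPM in the Δ*nsd3* libraries, against 49.0, 74.2, and 110 TPM in the WT libraries, with a log2 fold change of −6.08. TRIREDRAFT_110152 and TRIREDRAFT_66788 were at 5.79 and 1.4 TPM in the Δ*nsd3* strain and at 109 and 34.4 TPM in WT. Between 1 and 10 TPM the falls were near complete in TRIREDRAFT_30465, TRIREDRAFT_70961, and TRIREDRAFT_43701 (0.105, 0.00435, and 0.445 TPM in the Δ*nsd3* strain, against 17, 13.7, and 17.6 TPM in WT), while TRIREDRAFT_75290, TRIREDRAFT_111442, and TRIREDRAFT_4484 rose with log2 fold changes of 2.54, 2.37, and 2.36.

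The calls were not spread evenly along the genome. In the gene order of the RefSeq table (assembly v2.0), a median over 21 neighbouring tested genes was raised above 0.2 over 211 genes on a single scaffold, from TRIREDRAFT_44097 to TRIREDRAFT_29115. This stretch was chosen after the values were seen, and scaffolds were taken to end where positions restart. Its median log2 fold change was 0.79, against −0.02 over the other 7695 genes. In it 62 genes were called higher and 5 lower, or 29.4% higher against 3.79% of all genes, and they made up 20.7% of all genes called higher. The running median reached 1.28, 0.68 in a shorter rise on the same scaffold, and 0.59 at most on other scaffolds. The stretch holds TRIREDRAFT_74020, TRIREDRAFT_44175, *axe2*, *gal1*, *pap1*, *dpm1*, and *lxr1*, and its abundant genes TRIREDRAFT_21270 and TRIREDRAFT_102837 had log2 fold changes of 1.25 and 2.0. Some members fell, such as TRIREDRAFT_119779, with 156 TPM in the Δ*nsd3* strain and 586 TPM in WT. The median of these 211 genes was 0.76 on glucose, 0.76 on cellulose at 8 h, and 0.65 at 48 h. Without the stretch, 238 genes were called higher and 437 lower. DNA copy number was not measured, and the cause of the pattern was not tested.

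**Figure D4:**
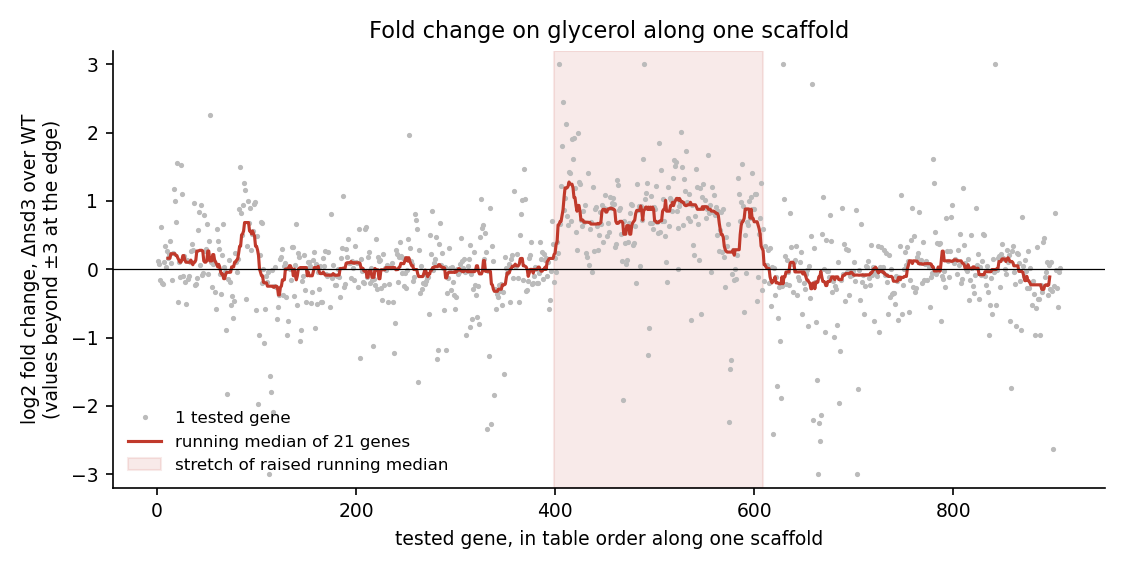
Log2 fold change on glycerol (y axis) of the 907 tested genes of one scaffold, in gene order (x axis). Grey points are genes, the red line is the median over 21 neighbours, and the shaded area is the stretch of 211 genes. The line rises and falls at the edges of the shaded area and stays near 0 elsewhere, apart from a short rise near the left.

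Falling genes also lay side by side. A scaffold of 20 genes, of which 9 passed the filter and 8 were called lower, had no gene above 0.236 TPM in any Δ*nsd3* library, whereas TRIREDRAFT_70961 reached 13.7 TPM on average in WT. It holds TRIREDRAFT_112560, which encodes a transcription factor of the zinc cluster type. This gene had 0, 0.0339, and 0.00502 TPM in the Δ*nsd3* libraries, against 2.44, 2.6, and 2.42 TPM in the WT libraries. Over all genes, 4 runs of at least 4 neighbouring genes were called higher, 3 of them in the raised stretch, and 6 runs were called lower. *chi18-2* and TRIREDRAFT_73048 belonged to a run of 5, with TRIREDRAFT_120975, TRIREDRAFT_58475, and TRIREDRAFT_58389, whose summed level was 851 TPM in the Δ*nsd3* strain and 4106 TPM in WT. TRIREDRAFT_54768 belonged to another run of 5, from TRIREDRAFT_119860 to TRIREDRAFT_103112, with 349 and 2205 TPM. A run of 6 from TRIREDRAFT_110151 to TRIREDRAFT_66788 summed to 80.0 TPM in the Δ*nsd3* strain and 579 TPM in WT.

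The strain effect on glycerol was set beside the other conditions of the series. *hfb2* was lower in the Δ*nsd3* strain in each, at −1.88 on glycerol, −1.34 on glucose, and −2.27 and −1.12 on cellulose at 8 h and 48 h (log2 fold changes). *rgs1* was higher throughout (2.25, 2.31, 1.99, and 2.12), and so was TRIREDRAFT_74020 (5.84, 5.77, 4.93, and 5.24). *chi18-2* had −2.20 on glycerol, −0.38 on glucose, and 1.03 and 1.83 on cellulose at 8 h and 48 h. Its strains overlapped on cellulose, where it had 94.7, 115, and 205 TPM in the Δ*nsd3* libraries and 18.5, 73.7, and 182 TPM in the WT libraries at 8 h. At 48 h it had 143, 282, and 289 TPM in the Δ*nsd3* libraries and 25.6, 44.7, and 213 TPM in the WT libraries. The difference between glycerol and cellulose was not tested. Between glycerol and glucose the strain effect itself was tested as an interaction in the same model, and it differed at an adjusted p under 0.05 in 22.2% of all genes. *hxt1* had opposite signs on these carbon sources. On glucose it had 23.8 ± 4.87 TPM in the Δ*nsd3* strain and 1.7 ± 0.545 TPM in WT (SD, n = 3), a log2 fold change of 3.2, opposite to the −1.01 on glycerol (difference −4.21, limma adjusted p = 2.3e-09). *min1* was at 0.44 on glucose and at 5.43 on glycerol, and TRIREDRAFT_82026 was at −0.66 there and at 5.11 on glycerol.

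**Figure D5:**
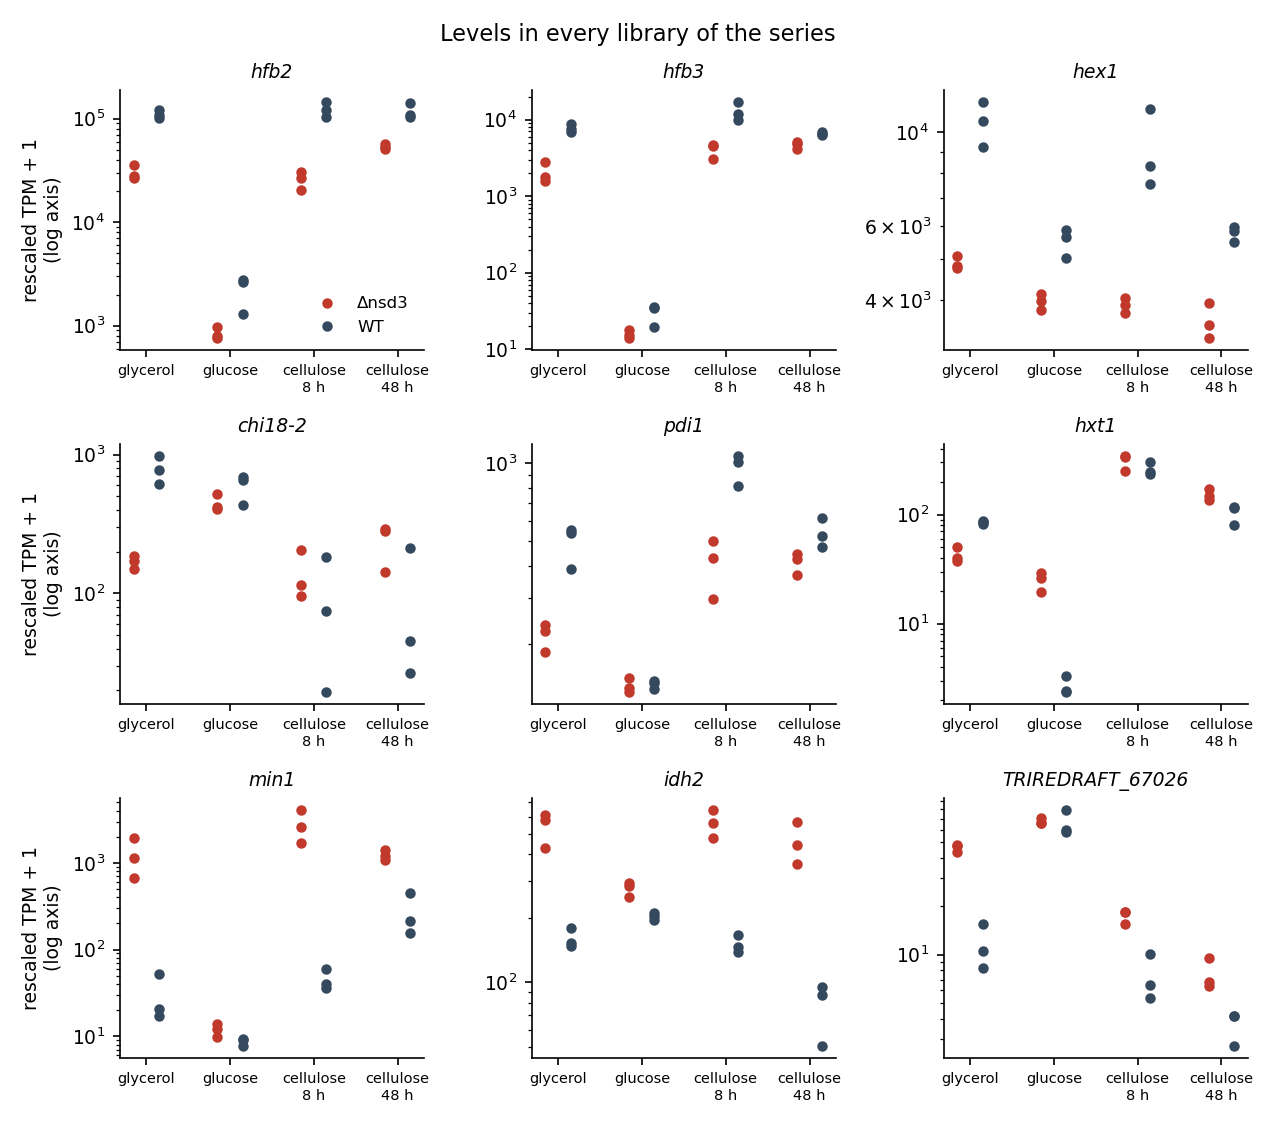
Rescaled TPM + 1 (y axes, log scale) of 9 genes in each library of the series, by condition (x axes). Red points are Δ*nsd3* libraries and dark points WT libraries, 3 each. *hfb2* is lower in the Δ*nsd3* strain in each condition, and *hxt1* is lower on glycerol and higher on glucose.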

How the data were processed

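The deposited table holds TPM that the authors made from reads trimmed with Trim Galore 0.6.7, mapped with HISAT2 2.2.1 to the Trire2 reference genome, and counted with featureCounts on its annotation, per the labels and the methods of the study. The table gives 8755 genes in 24 libraries and no counts, so the DESeq2 comparisons of the authors were not repeated. The strand setting of the counting is not given in the sources used here. No column was left out.

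TPM was divided by the median of ratios over 24 libraries and set to log2(TPM + 1). Genes with at least 1 rescaled TPM in at least 3 libraries were tested in 1 limma 3.58.1 model (R 4.3.3) of all 24 libraries. It had a mean per group, a variance per gene shared by all groups, and an intensity trend. The p-values were adjusted by Benjamini-Hochberg over all 7906 genes. With 3 libraries against 3, an exact permutation test gives no p under 0.1. Nothing in the labels says that replicates were separate cultures, so p-values measure the spread between libraries. This spread is pooled within the groups of all 24 libraries, so SE and p on glycerol also reflect glucose and cellulose libraries. The model was checked on simulated data.

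The function groups were built from gene symbols in the RefSeq gene table, which matched 8750 identifiers, 225 of them with a symbol, because the table holds no product text for the planned searches. Of 169 listed genes, 157 were tested. A further group of genes is not reported here. Markers of conidia, planned as part of those searches, were not checked. The groups, the members, and the rule for named genes were chosen with earlier results of these data known. Named genes were *nsd3*, genes the paper names, 3 called genes in each direction per class from 1 TPM up, 10 genes with the largest TPM difference in each direction, 2 called genes in each direction per function group, and called genes with a symbol, which were added after the values were seen. Neighbours and stretches were also chosen after their values were seen. Depth was estimated from low TPM values and RefSeq gene lengths, and between 76.8% and 80.9% of these values were within 0.1 of a whole read, against 20% for evenly spread values. In other libraries the same estimate settled on multiples of a plausible value, so it was used for the glycerol libraries only.

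Libraries with the same replicate number deviated together on glycerol (correlations of 0.110, 0.208, and 0.208), so the numbers were taken as pairs in an alternative fit. Of the unmatched pairs, Δ*nsd3* replicate 2 with WT replicate 1 reached 0.111, and the others were at 0.0226 or lower. The other alternatives were other scalings, pseudocounts of 0.1 and 5, other filters, fits of 6 libraries, no trend, array weights, and each library left out. Depths and figures were made in Python 3.11.15 (with numpy 2.4.6 and pandas 2.3.3; plots in matplotlib 3.10.9).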

Additional observations from a re-analysis of the deposited data

Results flagged for a closer look

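The strain effect on glycerol differed from that on glucose, by the interaction term of the limma model, in 21 of the 47 named genes that were called. Over all genes tested, 22.2% passed the same test. The named genes were picked by calls on the same glycerol values, which favours passing. Their share is therefore not comparable with that of all genes. The values are log2 differences of the strain effect (glycerol minus glucose), with adjusted p-values over all genes tested. The interaction was positive in TRIREDRAFT_82026 (5.77), *min1* (4.99), TRIREDRAFT_111442 (3.93), TRIREDRAFT_4484 (3.48), and TRIREDRAFT_103335 (3.22), with adjusted p of 1.4e-08 to 0.00021. It was also positive in the siderophore transporter gene TRIREDRAFT_67026 (2.0), TRIREDRAFT_60847 (1.43), *idh2* (1.30), *pap1* (1.27), *cro1* (1.25), TRIREDRAFT_75290 (1.21), *axe2* (0.71), and TRIREDRAFT_112560 (0.47), where the 3 libraries of the mutant on glucose were listed at 0.

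It was negative in *hxt1* (−4.21), TRIREDRAFT_73048 (−1.60), *pdi1* (−1.16), TRIREDRAFT_121717 (−1.16), TRIREDRAFT_70961 (−1.15), *hfb3* (−1.07), TRIREDRAFT_55272 (−1.05), and *hex1* (−0.63). TRIREDRAFT_70961 was at the floor in the mutant on both carbon sources, with 0.00435 TPM on glycerol and 0.0199 TPM on glucose. Its value therefore restates the WT levels of 13.7 and 5.68 TPM. The adjusted p of *hex1* was 0.046. With TPM as deposited the difference no longer passed the test in *hex1* (−0.08), *hfb3* (−0.54), *pdi1* (−0.62), or TRIREDRAFT_55272 (−0.52). In *hex1*, *hfb3*, TRIREDRAFT_55272, *cro1*, and *axe2* it was also lost when some single libraries were left out, in TRIREDRAFT_112560, TRIREDRAFT_70961, and TRIREDRAFT_55272 with a pseudocount of 0.1, and in TRIREDRAFT_112560 with the replicate block. Quantile normalization ended it in *hex1*, *hfb3*, *pdi1*, and TRIREDRAFT_55272, and scaling over the glycerol libraries alone or testing without a filter ended it in *hex1*.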

How the results depend on the processing

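Scaling moved several results. With TPM as deposited, 586 genes in the Δ*nsd3* strain were called higher and 246 lower, 3 function groups were lower and 11 higher without overlap, and the ratios of translation factors (1.15), proteasome (1.04), and acetyl-CoA genes (1.04) moved above 1. *cre1* (0.28), TRIREDRAFT_78465 (0.28), and *bip1* (0.20) then had log2 fold changes above 0. Quantile normalization gave 7 groups lower and a ratio of 1.24 for translation factors. With it the log2 fold changes of TRIREDRAFT_110879 (0.95), *cre1* (0.11), and *bip1* (0.049) were above 0. The difference in the share of genes at 1000 TPM and over was then −0.19 percentage points. Quantile normalization holds this share nearly equal by construction. With classes set by the WT mean this difference was −6.92. A pseudocount of 5 gave 163 genes higher and 270 lower, and a log2 fold change of −0.072 for *cel7a*. Without the 10 genes of largest difference, the top 10, 50, and 100 shares differed by −0.18, −0.93, and −1.19 percentage points. Without the stretch of neighbouring genes, an alternative added after seeing the data, 3 groups were higher and the glycosylation ratio was 0.746.

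Leaving out single libraries gave 287 to 334 genes higher and 397 to 455 lower, 10 to 14 groups lower and 5 to 6 higher, and differences of −6.30 to −4.96 percentage points for genes at 1000 TPM and over, −7.02 to −6.15 for the top 10, −7.33 to −6.13 for the top 50, and −6.83 to −5.42 for the top 100. The value of *cel7a* ranged over −0.62 to 1.15, of *xyr1* over −0.041 to 0.20, and of TRIREDRAFT_78465 over −0.18 to 0.036. With the replicate block, 299 genes were higher and 449 lower, and the glycerol fold change of *nag2* became a call, as it did in the fit of 6 libraries. No other named gene changed its glycerol call with the block. Of the 47 named genes called, 41 to 47 were called under each alternative, and none changed direction. Counting error cannot be separated from these values without counts, and reads of overlapping antisense genes may be mixed. Causes of these differences were not tested unless stated.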
